A study of Mus musculus with 130 samples.

Results

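The receptor complex with which hepatocytes read body iron was followed through 9 genes, chosen by name: Tfr2, Hfe, Hjv (annotated in older releases as Hfe2), Tmprss6, Neo1, Bmpr1a, Acvr1, Bmpr2 and Acvr2a. All 9 were found by symbol among the 35274 genes of the diet table and the 35711 genes of the strain table, and all 9 passed the filter on low counts. Liver RNA came from 130 male mice. For the diet comparison, 15 mice of the C57BL/6J strain, 3 per diet, ate chow, a diet with 50 ppm iron (sufficient), a diet with 500 ppm iron (elevated), 2% carbonyl iron (20000 ppm), or 2% carbonyl iron with cellulose as the fibre source. In the panel, 114 inbred strains had 4 weeks of chow and then 6 weeks of the 2% carbonyl iron diet, so every panel mouse was fed high iron. Recombinant inbred strains made up most of it (BXD 56, AXB/BXA 20, BXH 4, CXB 3) beside 31 further inbred strains. The BXD strains include BXD24/TyJ-Cep290<rd16>/J, whose label names an allele of Cep290. There was 1 mouse per strain except 2 mice of 129X1/SvJ. A strain value therefore holds the strain, the mouse and the library together. Ages, and how long the diet groups were fed, are not given in the sources used here. The labels give no iron content for chow. In contrasts that include chow, iron and the rest of the diet therefore cannot be told apart. A fibre source is labelled only for the cellulose diet. Against the chow, 50 ppm and 500 ppm diets, its iron and its fibre source therefore cannot be told apart.

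As background, iron-loaded transferrin and bone morphogenetic proteins (BMPs) are read at the hepatocyte surface and raise hepcidin, the hormone that blocks iron export from gut and macrophages. Sinusoidal endothelial cells make the ligand BMP6. On the hepatocyte, type I receptors (Bmpr1a, encoding ALK3, and Acvr1, encoding ALK2) and type II receptors (Bmpr2 and Acvr2a) form the signalling complex. Hemojuvelin (Hjv) is the BMP co-receptor, neogenin (Neo1) binds hemojuvelin, and matriptase-2 (Tmprss6) is the protease that lowers signalling at this complex. Transferrin receptor 2 (Tfr2) and HFE (Hfe) link the complex to circulating iron. Type I and type II receptors and Neo1 are also made by other liver cells, and in whole liver fewer cells of a type and less RNA per cell cannot be told apart.

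On GRCm38, Tfr2 (ENSMUSG00000029716) lies at chr5:137569840-137587481, Hfe at chr13:23702034-23710854, Hjv (ENSMUSG00000038403) at chr3:96525172-96529210 and Tmprss6 (ENSMUSG00000016942) at chr15:78439667-78468634. Neo1 (ENSMUSG00000032340) lies at chr9:58874687-59036441, Bmpr1a at chr14:34410734-34503341, Acvr1 at chr2:58388644-58567157, Bmpr2 at chr1:59763400-59879014 and Acvr2a at chr2:48814109-48903269. None of the first 4 overlaps another annotated gene. Each of the other 5 overlaps 1, which is antisense for Neo1, Bmpr1a, Acvr1 and Acvr2a and on the same strand for Bmpr2 (Gm38125). These overlaps are of whole gene spans, introns included, and overlap of exons was not checked. Whether the counting used strand is not given in the sources used here. Where exons overlap, reads of these 5 genes and of their overlapping genes may be mixed.

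The sequence around the start site was read for 7 of the 9 genes from RefSeq (GRCm38.p6), as 300 bases of which 250 precede the start. Hjv and Tmprss6 did not match. Shown are Tfr2 (the most abundant member), Hfe and Neo1 (both called on an iron diet) and Bmpr2 (the member that tracked Bmp6 across strains). The windows are chr5:137569590-137569889 (+ strand, the first of 3 listed starts) for Tfr2, chr13:23710805-23711104 (- strand) for Hfe, chr9:59036392-59036691 (- strand) for Neo1 and chr1:59764029-59764328 (+ strand) for Bmpr2. Capitals mark GGCGCC, a GC-rich motif known from BMP-responsive elements, and GGGCGG on either strand (CCGCCC on the other), the GC box. In Neo1 a GGCGCC and a CCGCCC share a base. The windows of Bmpr2, Bmpr1a and Acvr1 lie wholly inside the gene coordinates given above. Those of Hfe, Neo1 and Acvr2a, and the first of Tfr2, reach beyond the gene's start.
Tfr2: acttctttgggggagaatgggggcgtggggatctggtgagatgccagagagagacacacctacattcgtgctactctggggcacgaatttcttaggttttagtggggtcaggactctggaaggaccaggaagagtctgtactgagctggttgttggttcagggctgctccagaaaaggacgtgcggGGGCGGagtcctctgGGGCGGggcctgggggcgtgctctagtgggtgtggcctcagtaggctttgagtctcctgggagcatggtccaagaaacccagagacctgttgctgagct
Hfe: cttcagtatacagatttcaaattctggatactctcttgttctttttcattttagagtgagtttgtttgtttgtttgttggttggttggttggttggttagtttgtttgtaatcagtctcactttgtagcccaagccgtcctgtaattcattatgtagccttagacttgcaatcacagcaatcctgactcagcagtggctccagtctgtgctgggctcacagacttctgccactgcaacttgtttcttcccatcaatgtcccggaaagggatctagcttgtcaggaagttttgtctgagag
Neo1: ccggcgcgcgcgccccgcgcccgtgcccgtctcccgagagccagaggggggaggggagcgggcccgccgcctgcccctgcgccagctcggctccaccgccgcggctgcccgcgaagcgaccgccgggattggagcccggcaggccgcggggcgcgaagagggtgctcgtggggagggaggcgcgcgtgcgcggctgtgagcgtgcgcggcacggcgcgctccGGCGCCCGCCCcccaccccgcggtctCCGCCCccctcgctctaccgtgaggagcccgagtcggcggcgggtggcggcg
Bmpr2: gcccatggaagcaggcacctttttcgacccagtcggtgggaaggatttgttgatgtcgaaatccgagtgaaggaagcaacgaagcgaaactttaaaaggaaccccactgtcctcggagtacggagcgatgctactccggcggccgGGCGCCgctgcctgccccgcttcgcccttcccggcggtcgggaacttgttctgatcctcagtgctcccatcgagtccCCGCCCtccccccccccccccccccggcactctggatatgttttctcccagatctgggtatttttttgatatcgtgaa
The windows differ in base composition. G and C make up 82.7% of the Neo1 window, 83.7% for Acvr1, 80.3% for Acvr2a and 79.3% for Bmpr1a. They make up 59.3% for Bmpr2, 58% for Tfr2 and 42.7% for Hfe, against a median of 52.7% over all 32851 windows in the table. GGCGCC occurred in Neo1, Bmpr1a and Bmpr2, and in 11.9% of all windows. GGGCGG occurred in every matched member except Hfe (for Tfr2, in the first of its 3 windows), and in 35.7% of all windows. Neither TATAAA (13.6% of all windows, both strands) nor CACGTG (7.15%) was found in any member's window. These matches describe the letters in the windows and were not tested against expression.

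Per transcript length, the 9 genes fell into tiers. Across the 15 diet mice, Tfr2 ran from 109.9 to 182 TPM (transcript abundance scaled by length and library total) and Tmprss6 from 97.8 to 139 TPM, and these ranges overlapped. Hjv followed at 38.2 to 55.5 TPM and Hfe at 13.2 to 22.8 TPM, with no overlap between them or with the genes above. The signalling receptors and neogenin were low: Bmpr1a at 6.64 to 12.04 TPM, Acvr2a at 4.88 to 6.72 TPM, Acvr1 at 3.67 to 7.46 TPM, Bmpr2 at 4.22 to 6.70 TPM and Neo1 at 3.05 to 5.16 TPM. Among those last 5 every pair overlapped except Bmpr1a and Neo1. Medians over the 114 iron-fed strains had Tfr2 (162 TPM) and Tmprss6 (159 TPM) highest, then Hjv (46.1 TPM), Hfe (18 TPM), Bmpr1a (8.79 TPM), Acvr2a (6.03 TPM), Acvr1 (5.50 TPM), Bmpr2 (5.15 TPM) and Neo1 (3.65 TPM). The type I and type II receptors and Neo1 were below the other 4 genes, in the diet mice by range and in the panel by median. Over the 114 strains the ranges overlapped: Bmpr1a reached 15.45 TPM while Hfe went down to 10.91 TPM. Likewise Hfe reached 36.54 TPM while Hjv went down to 18.86 TPM. All other levels below are CPM, counts scaled by library total and TMM factors, which compare 1 gene between samples and not genes with each other.

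Library totals were 10.4 to 20.4 M counts for the diets and 9.41 to 20.6 M counts for the strains. Replicate 2 of the 500 ppm group was the deepest diet library and stood apart from its group on the first principal component. Hepatocyte markers summed to 68300 to 93450 CPM in every diet library. The 6 macrophage markers summed to 457 to 698 CPM on both 2% diets and to 107 to 203 CPM on the other 3, and the 5 erythroid markers to 156.4 to 475.4 CPM against 63.3 to 148 CPM. Cholangiocyte and lymphocyte markers stayed at or below 15.1 CPM in sum. In the library labelled BXD65 the Y-linked genes summed to 3.94 CPM, against 118 or more in the others, so that library goes against its label as male. Results are given with it. Without it the family calls were the same and 14 in place of 18 correlations passed, the 4 lost being Hfe and Acvr1, Neo1 and Acvr1, Bmpr1a and Bmpr2, and Tfr2 and Hamp.

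Tmprss6 was lower on both 2% iron diets and did not differ detectably between 50 and 500 ppm (log2 change -0.05 ± 0.09, edgeR adjusted p = 1). In the 50 ppm mice it measured 439, 371 and 398 CPM, in the 500 ppm mice 412, 361 and 393 CPM, and in the chow mice 388.1, 408.1 and 407.2 CPM. In the 2% iron mice it measured 308, 350.3 and 303 CPM, and with cellulose 288, 291 and 306 CPM. Every mouse on a 2% diet lay below every mouse on the other 3 diets, while the 50 ppm, 500 ppm and chow groups overlapped one another. Against 50 ppm, 2% iron lowered Tmprss6 by a log2 change of -0.33 ± 0.09 (SE), to 0.796 times the level (edgeR quasi-likelihood test, adjusted p = 0.0249), and it was the only one of the 9 called at an adjusted p under 0.05, where 15.7% of all genes were called. With cellulose the change was -0.45 ± 0.09 (adjusted p = 0.00275, and 0.0512 with limma on log2(TPM + 1)), and against chow the 2% diet gave -0.32 ± 0.09 (adjusted p = 0.0190). Over the 6 mice on both 2% diets against the other 9 it was -0.37 ± 0.06 (adjusted p = 2.09e-04). That contrast counts chow, whose iron content is not labelled, among the 9 and the cellulose mice among the 6. These contrasts share mice, so they are not separate evidence. The call for 2% iron against 50 ppm did not hold when replicate 1 of the 2% group was left out (adjusted p = 0.0731), its replicate 3 (0.0906), replicate 1 of the 50 ppm group (0.118) or its replicate 3 (0.05291), or with no filter on low counts (0.0557), the compared groups alone (0.0765) or limma on log2(TPM + 1) (0.137). The log2 change stayed between -0.40 and -0.26 under all 13 alternatives. The call for 2% iron against chow was lost without replicate 1 (0.0637) or 3 (0.0720) of the 2% group or replicate 2 (0.0533) or 3 (0.05228) of the chow group, and with limma on log2(TPM + 1). Against 500 ppm the change of -0.28 ± 0.09 was not called (adjusted p = 0.0611), but was called without replicate 2 of the 500 ppm group (0.0354) or replicate 2 of the 2% group (0.0455). The call over both 2% diets held under all 21 alternatives. Macrophage markers moved with the same contrast, and their part in the result was not tested. Of 6 hepatocyte markers 2 fell for 2% iron against 50 ppm, while their sum ran from 82350 to 93450 CPM on the 2% diets and from 68300 to 90730 CPM on the others.

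**Figure D1:**
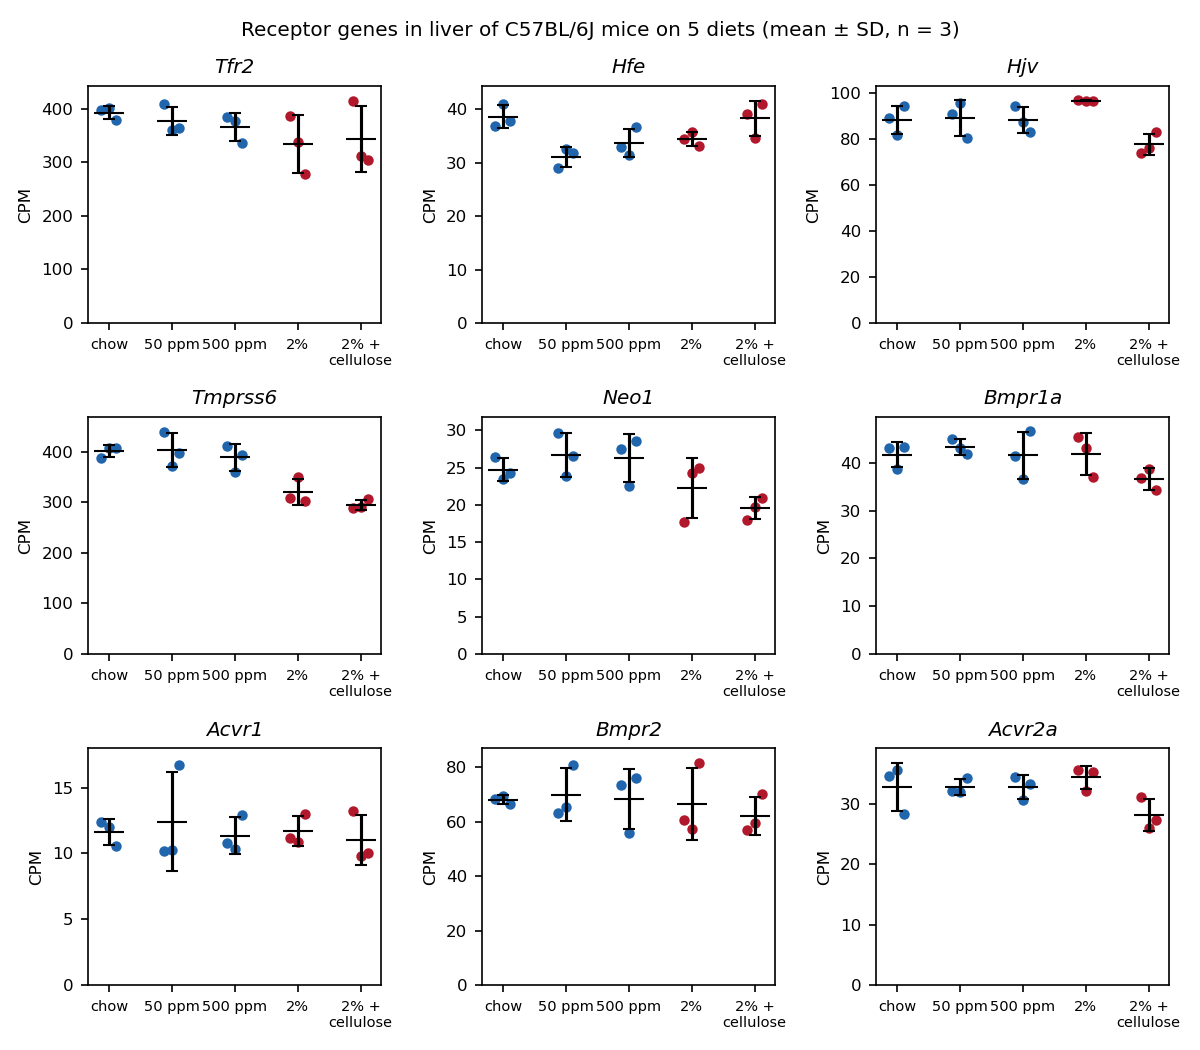
CPM (y axis, from 0) of the 9 receptor genes in each C57BL/6J mouse by diet (x axis), blue for chow, 50 ppm and 500 ppm and red for both 2% iron diets, with mean ± SD of 3 mice in black. The 6 Tmprss6 points on 2% iron, at 288 to 350.3 CPM, lie below the 9 others, at 361 to 439 CPM.

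Neo1 was lower on the 2% diets as well, with more scatter. It measured 29.7, 23.9 and 26.5 CPM at 50 ppm, 27.6, 22.6 and 28.6 CPM at 500 ppm, and 26.4, 23.5 and 24.3 CPM on chow. On 2% iron the values were 17.6, 24.3 and 24.9 CPM, and with cellulose 18.03, 19.67 and 20.95 CPM. All 3 cellulose mice lay below all 9 mice of the chow, 50 ppm and 500 ppm diets, whereas 2 of the 3 mice on 2% iron without cellulose lay within their range. Neo1 fell by 0.45 ± 0.13 (SE, log2) on the cellulose diet against 50 ppm (edgeR adjusted p = 0.0230) and by 0.31 ± 0.09 over both 2% diets (adjusted p = 0.0110). In the cellulose contrast iron and fibre source cannot be told apart. For 2% iron alone against 50 ppm the change of -0.26 ± 0.13 was not called (adjusted p = 0.208). With limma on log2(TPM + 1) neither Neo1 call held (adjusted p = 0.310 and 0.231). On that scale the median of all genes itself moved by 0.11 and 0.10, and relative to it Neo1 changed by -0.35 and -0.26. These relative values were not tested, nor was the part of that shift in the lost calls. The cellulose call was also lost without replicate 1 (adjusted p = 0.0800) or 2 (0.0551) of the cellulose group, or replicate 1 (0.101) or 3 (0.0501) of the 50 ppm group.

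Hfe moved the other way on the cellulose diet. Its values were 28.98, 32.48 and 31.90 CPM at 50 ppm, 32.9, 31.5 and 36.6 CPM at 500 ppm, 34.5, 35.7 and 33.2 CPM on 2% iron, and 39.21, 34.58 and 41.05 CPM with cellulose. On chow it measured 36.95, 41.01 and 37.88 CPM, as high as on the cellulose diet. The 50 ppm mice were below all chow, 2% and cellulose mice. Hfe rose by 0.30 ± 0.09 (log2) on 2% iron with cellulose against 50 ppm (edgeR adjusted p = 0.0185). Iron and fibre source again cannot be told apart there. That call was lost without replicate 1 (adjusted p = 0.0660) or 3 (0.0802) of the cellulose group or replicate 1 of the 50 ppm group (0.0839), and in the compared groups alone (0.0557). Chow against 50 ppm gave a difference of almost the same size, 0.31 ± 0.09, that was not called (p = 0.0029, adjusted p = 0.193).

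Hjv showed its narrowest group on 2% iron, at 96.9, 96.6 and 96.3 CPM, and its lowest on 2% iron with cellulose, at 73.9, 76.1 and 82.9 CPM. These groups did not overlap. The 50 ppm mice (91.0, 95.7 and 80.5 CPM), the 500 ppm mice (94.2, 87.3 and 83.2 CPM) and the chow mice (88.9, 81.7 and 94.2 CPM) overlapped the cellulose group or lay between them. Cellulose against no cellulose at 2% iron gave -0.32 ± 0.09 (log2), which was not called (edgeR p = 0.00246, adjusted p = 0.159). Cellulose against 50 ppm gave -0.20 ± 0.09 (adjusted p = 0.0976), called only without replicate 3 of the 50 ppm group (adjusted p = 0.0455). Acvr2a, a type II receptor, had the same order, with 35.7, 32.2 and 35.4 CPM on 2% iron and 31.24, 26.02 and 27.34 CPM with cellulose, and its -0.29 ± 0.10 was not called either (adjusted p = 0.250).

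Tfr2 spread widely within the 2% groups, at 386.3, 337.6 and 278.2 CPM without cellulose and 303.6 to 414.6 CPM with it. The chow mice held together at 398, 401 and 379 CPM, the 50 ppm mice measured 408.1, 359.9 and 363.7 CPM, and the 500 ppm mice 384.3, 376.4 and 335.4 CPM. Over both 2% diets its change was -0.16 ± 0.09 (log2, edgeR adjusted p = 0.158), and without replicate 1 of the cellulose group it was -0.24 (adjusted p = 0.0260). Among the type I and type II receptors, no call was made in any diet contrast. Bmpr1a lay at 34.3 to 46.6 CPM, Bmpr2 at 55.7 to 81.5 CPM, Acvr1 at 9.79 to 16.7 CPM and Acvr2a at 26.02 to 35.72 CPM over all 15 mice. For 2% iron against 50 ppm, their log2 changes lay between -0.09 and 0.07, with SEs of 0.10 to 0.19.

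The 9 diet contrasts differed in how many genes they moved, which sets the background for these counts. For 2% iron against 50 ppm 1 of 9 members was called (lower), against 15.7% of 13560 genes, and for 2% iron against chow 1 of 9 (lower), against 22.8%. Cellulose against 50 ppm gave 3 of 9 (1 higher, 2 lower), against 29.7%, and both 2% diets against the other diets 2 of 9 (lower), against 42.8%. As shares of the 9 genes, these counts lie near or below the background. In 2% iron against 500 ppm 0 of 9 were called by edgeR against 11.3% of genes (1 of 9 at an unadjusted p under 0.05, against 26.9% of genes), and DESeq2 called 1, Tmprss6 (adjusted p = 0.0105). No member was called by edgeR, DESeq2 or limma for 500 ppm against 50 ppm (0% of all genes by edgeR), chow against 50 ppm (0.391%), cellulose against no cellulose (0.0811%) or 500 ppm against chow (0.59%). At an unadjusted p under 0.05 the members counted 0, 1, 2 and 1 of 9 in these contrasts, against 3.16%, 10.4%, 13% and 13.7% of all genes. The median log2 change of the 9 members was -0.07 for 2% iron against 50 ppm and -0.09 over both 2% diets, and that of all genes was 0.01 and 0.00.

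**Figure D2:**
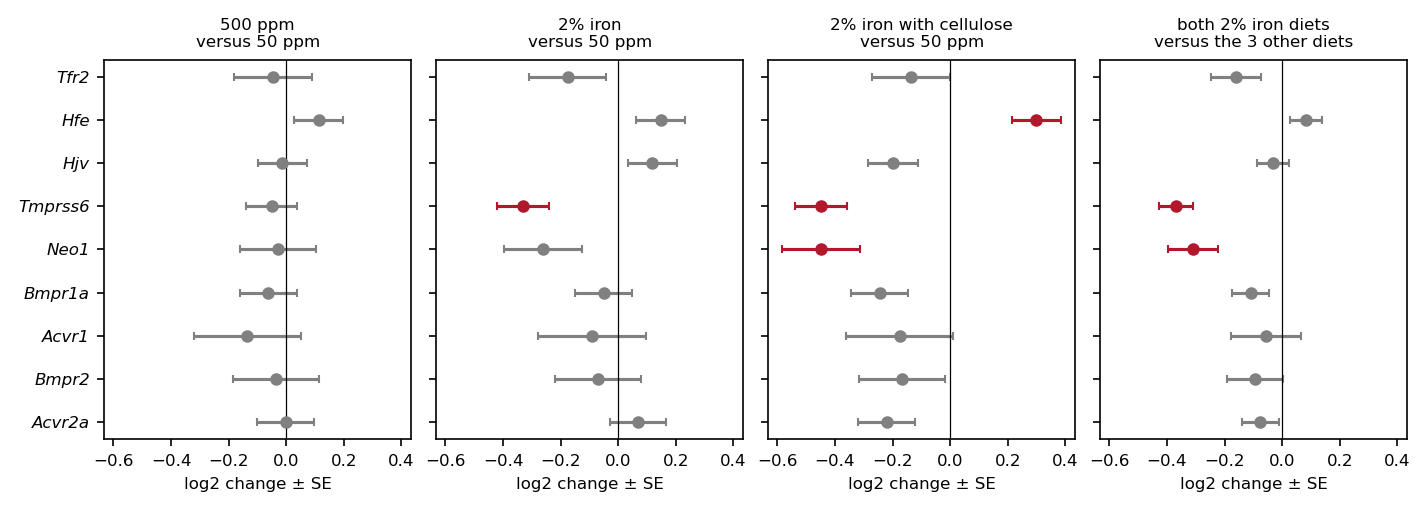
Log2 change ± SE (x axis) of each receptor gene (y axis) in 4 diet contrasts of the edgeR fit, red where the adjusted p was under 0.05. Tmprss6 is red in the 3 contrasts with a 2% diet and lies at -0.05 for 500 ppm against 50 ppm.

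Hepcidin, Bmp6 and several SMAD genes rose in the contrast in which Tmprss6 fell. Of 48 further pathway genes, 43 were tested and 14 rose and 3 fell for 2% iron against 50 ppm, where 15.7% of all genes were called. Their median log2 change was 0.27, against 0.01 for all genes, and the difference from the 9 receptors was not tested. Of 10 ligands, Bmp6 rose by 2.31 ± 0.24 (log2, edgeR adjusted p = 1.27e-04) and Bmp7 fell by 1.44 ± 0.45 (adjusted p = 0.0446). Among 6 target genes 4 rose: hepcidin (Hamp) by 1.40 ± 0.30, its paralog Hamp2 by 2.25 ± 0.61, Id1 by 2.67 ± 0.66 and the transcription factor Atoh8 by 1.61 ± 0.15. Hamp and Hamp2 are near-identical copies, so their split of reads is uncertain. Among 6 SMAD genes 3 rose, which were the inhibitory Smad7 (2.00 ± 0.41) and Smad6 (0.80 ± 0.18) and the signalling Smad9 (1.66 ± 0.29). Receptors outside the list of 9 gave 2 rises and 1 fall among 9 tested. Acvrl1, the endothelial type I receptor ALK1, rose by 1.29 ± 0.21, the pseudoreceptor Bambi rose by 0.81 ± 0.23, and Acvr2b fell by 1.18 ± 0.22. Among partners and regulators 4 of 12 rose, among them transferrin (Trf, 0.69 ± 0.15), the type I receptor binder Fkbp1a (0.41 ± 0.11) and the HFE partner B2m (0.38 ± 0.09), while the heparan sulfate enzyme Ndst1 fell by 0.42 ± 0.12. Macrophage markers rose in the same contrast, 6 of 6, as did 4 of 5 erythroid markers and 1 of 6 sinusoidal endothelial markers, and their part in these changes was not tested.

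Across strains on the same iron diet, levels differed most, relative to the spread between mice of a diet group, in Hjv and Tmprss6. The SD of log2 CPM over 114 strains was 4.25 times the pooled SD within diet groups for Hjv, 3.29 times for Tmprss6 and 2.58 times for Hfe. For these genes the ratio was at or above the 87.3 percentile of 13410 genes, whose median was 1.66. Neo1 (1.46), Acvr2a (1.42), Tfr2 (1.41), Bmpr1a (1.29) and Bmpr2 (1.06) lay below that median, and Acvr1 (0.760) below 1, so that strains varied no more than C57BL/6J mice of a diet group did. Set against the 2 groups on 2% iron alone, Tfr2 (0.972) and Bmpr2 (0.949) also fell below 1. In BXD strains alone the ratio was 2.81 for Hjv, 2.58 for Hfe and 2.37 for Tmprss6, so that Hfe came before Tmprss6. A ratio over 1 was found for 93.6% of all genes. The SD over strains itself was 0.391 for Hjv, 0.298 for Tmprss6 and 0.246 for Hfe, against a median of 0.346 over all genes. These lay at the 56.5, 41.7 and 29.7 percentiles, and the SDs within diet groups were 0.092, 0.091 and 0.095. Tmprss6 and Hfe thus varied less across strains than the median gene, and their high ratios go with a small SD within diet groups. The within-group SD comes from another table, normalized separately, with 3 mice per group.

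Hjv ranged from 31.9 CPM in NZW/LacJ through a median of 86.3 to 136 CPM in C57L/J, a 4.27-fold span. A/J, a parent of the AXB/BXA strains, was next to the bottom at 37.98 CPM, while C57BL/6J, a parent of both large families, had 88.3 CPM and DBA/2J, the other BXD parent, 96.96 CPM. BXD strains ran from 47.5 to 125 CPM (median 92.3) and AXB/BXA strains from 52.1 to 98.2 CPM (median 76.7). Each AXB/BXA strain was above A/J. The other inbred strains had a median of 70.8 CPM. Hjv was higher in BXD than in other inbred strains by 0.34 ± 0.07 (log2, edgeR adjusted p = 4.36e-04), and this was the only member called in that contrast, 1 of 9 against 19.1% of 14153 genes. The fit took each strain as an independent replicate, although all BXD strains descend from C57BL/6J and DBA/2J. Those parents were counted among the other inbred strains, and both lay above the median of that group. BXD against AXB/BXA gave 0.19 ± 0.09 (adjusted p = 0.159), called only in a fit of those 2 families alone (adjusted p = 0.0417).

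Tmprss6 was lowest in NZB/BlNJ at 127 CPM, then 163 CPM in BXH2/TyJ and 212 CPM in BTBR T<+> tf/J, below all BXD strains (270.1 to 467.3 CPM, median 379.1). The highest strain was 129X1/SvJ at 523.4 CPM, with 509.3 and 537.5 CPM in its 2 mice. C57BL/6J had 303 CPM, 13th from the bottom, below DBA/2J (423), A/J (464.4) and C3H/HeJ (450.4). The diet study put C57BL/6J on 2% iron at 303 to 350.3 CPM, in a separately normalized table. NZB/BlNJ was also the lowest strain for Tfr2 (218 CPM) and next to the lowest for Hamp (332 CPM). BXH2/TyJ was 5th from the bottom for both Hjv (39.98 CPM) and Hamp (511 CPM). BXH2/TyJ was also next to the lowest strain in the macrophage marker sum (189.7 CPM) and 16th from the bottom in the hepatocyte sum (79520 CPM), and their part in its values was not tested. In NZB/BlNJ the endothelial sum ranked 101st from the bottom, stellate 98th, hepatocyte 55th and macrophage 49th, and their part was not tested either. Neo1 was 4th from the bottom in NZB/BlNJ (14.05 CPM) and 7th in BXH2/TyJ (14.21 CPM), and Hjv was 6th in NZB/BlNJ (42.95 CPM). For the signalling receptors the 2 strains ranked from 17th (Bmpr1a in NZB/BlNJ) to 105th (Acvr2a in BXH2/TyJ) of 114. Each low value rests on a single mouse.

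Other members spread less. Tfr2 ran from 218 to 537 CPM (RIIIS/J), with a median of 383. Hfe ran from 21.7 (BXA14/PgnJ) through 32.5 to 48.2 CPM (BXD38/TyJ), with C57BL/6J at 39.9 and DBA/2J at 28.6 CPM. Neo1 ran from 13.2 (FVB/NJ) through 20.3 to 31.8 CPM (C3H/HeJ), and the next highest strain had 26.5 CPM. Bmpr2 ran from 31.6 (BXD12/TyJ) through 62 to 83.5 CPM (BXA11/PgnJ), Acvr2a from 22.3 (BXD31/TyJ) through 31.8 to 40.8 CPM, and Acvr1 from 8.05 (BXD38/TyJ) through 12.9 to 17.5 CPM. Bmpr1a had the smallest SD of log2 CPM, 0.156, and ran from 28.9 (BTBR T<+> tf/J) through 38.1 to 48.2 CPM (A/J). No member formed separate clusters of strains. BXD against AXB/BXA gave 0 of 9 called by edgeR, DESeq2 and limma, against 8.45% of genes, and 4 of 9 had an unadjusted p under 0.05, against 21.9%. AXB/BXA against other inbred strains gave 0 of 9 by the same tools, against 18% by edgeR, and 1 of 9 had an unadjusted p under 0.05, against 31.7%.

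**Figure D3:**
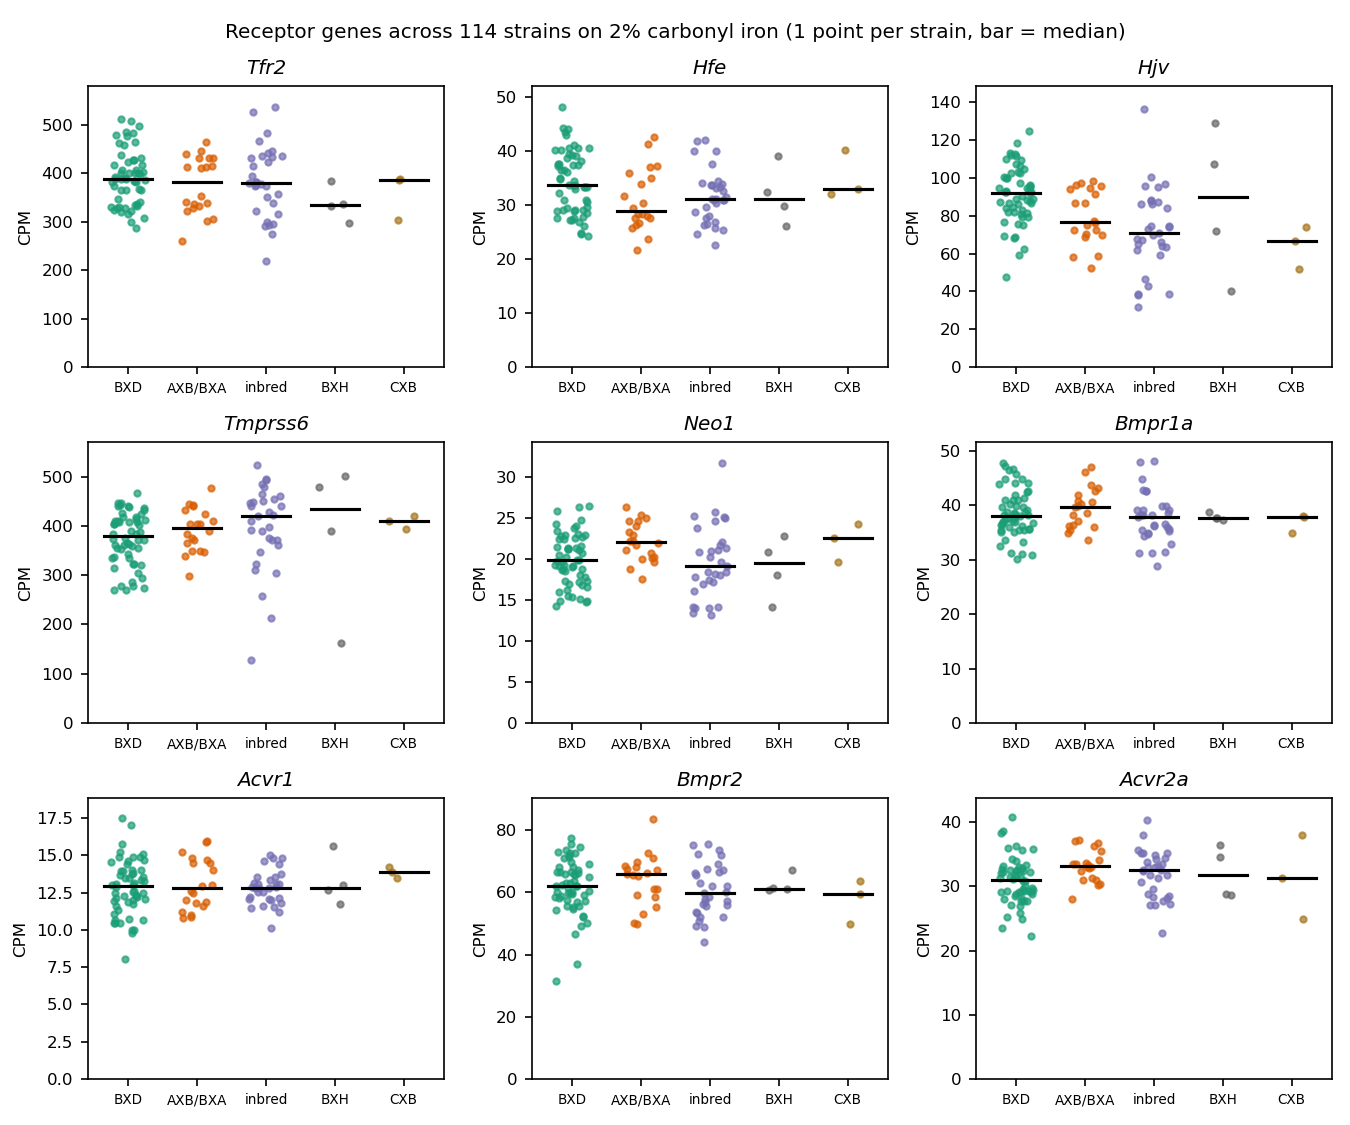
CPM (y axis, from 0) of each receptor gene in 114 iron-fed strains by family (x axis), 1 point per strain and a bar at the median. Tmprss6 has a few strains far below the rest (127, 163 and 212 CPM), and Hjv has the widest spread, 31.9 to 136 CPM.

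Some members were correlated across strains, though the median r of the 36 pairs of members was 0.109. Of 72 relations computed over log2 CPM (36 pairs of members, and each member with Hamp, Bmp6, Id1 and Smad7), 18 passed by Pearson's r and 9 by Spearman's rho at an adjusted permutation p under 0.05. On log2(TPM + 1) 45 passed. Among pairs of members 12 passed by r, 11 positive and 1 negative. The negative pair, Hfe and Acvr1 (r = -0.235), turned to 0.237 on log2(TPM + 1). All p-values are two-sided, and the smallest that 100000 permutations give is 1e-05. The permutations treated each strain as independent, although strains of a recombinant family share parents.

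Tmprss6 and Neo1, the protease and the hemojuvelin binder, formed the closest pair of members, although among 12905 genes Neo1 ranked 891 by r with Tmprss6, and Tmprss6 ranked 288 by r with Neo1. They had r = 0.548 and rho = 0.506 over 114 strains (permutation p = 1e-05 for each, adjusted 2.4e-04 and 3.6e-04). Without C3H/HeJ and FVB/NJ, the strains farthest out in Neo1, r was 0.529. That check kept NZB/BlNJ and BXH2/TyJ, the lowest strains for Tmprss6, which were 4th and 7th from the bottom for Neo1. What r of this pair would be without those strains was not tested. Within families r was 0.410 in BXD, 0.512 in AXB/BXA and 0.629 in the other inbred strains (adjusted permutation p = 0.0349, 0.382 and 0.00288). It thus did not pass in AXB/BXA, and in BXD rho did not pass (adjusted permutation p = 0.0814). Tmprss6 and Neo1 were also the members called lower over both 2% diets. Neo1 and Bmpr1a had r = 0.322 and rho = 0.300 (adjusted permutation p = 0.00495 and 0.0173), and Hjv and Bmpr1a had 0.312 and 0.267 (adjusted 0.00608 and 0.0380). Hjv and Neo1 passed by r (0.304, adjusted permutation p = 0.00806) and not by rho (0.211, adjusted 0.111).

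Hjv tracked Tfr2 with r = 0.373 (adjusted permutation p = 7.2e-04) and Tmprss6 with r = 0.372 (adjusted 0.00132), though rho was 0.242 and 0.243 and neither passed (adjusted 0.0644 for each). Without BXH2/TyJ and NZB/BlNJ the r of Hjv and Tmprss6 was 0.231. The Hjv and Tfr2 relation was 0.622 in the other inbred strains, next there to that of Tmprss6 and Neo1, and 0.087 in BXD. A permutation of family labels did not show that difference beyond 72 tests (p = 0.0162, adjusted 0.621). Tfr2 and Tmprss6 had r = 0.261 (adjusted permutation p = 0.0278), which fell to 0.066 without BXH2/TyJ and NZB/BlNJ, so the relation rests on those strains. Toward the pathway's output, Tmprss6 had r = 0.352 with Hamp (adjusted permutation p = 0.00495) and rho = 0.194 (adjusted 0.140), and r was 0.297 without DBA/2J and NZB/BlNJ, the extremes of Hamp. Within families that r was 0.030 in BXD, 0.260 in AXB/BXA and 0.49 in other inbred strains, and none passed (adjusted permutation p = 0.913, 0.705 and 0.112). Tmprss6 with Smad7 gave r = 0.308 and rho = 0.281 (adjusted permutation p = 0.00956 and 0.0278), and Hjv with Smad7 gave 0.290 and 0.264 (adjusted 0.0127 and 0.0393). Hjv with Id1 gave 0.248 and 0.313 (adjusted permutation p = 0.0410 and 0.0130), and with values centred within families r was 0.214 and did not pass (adjusted 0.0894).

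Among the signalling receptors, Acvr1 passed with no other (r = 0.131 with Bmpr2, 0.023 with Bmpr1a and -0.055 with Acvr2a). Bmpr2 and Acvr2a, the type II receptors, had r = 0.449 and rho = 0.306 (adjusted permutation p = 2.4e-04 and 0.0130), and Bmpr1a and Acvr2a had 0.391 and 0.343 (adjusted 5.4e-04 and 0.00360). In BXD the Bmpr2 and Acvr2a relation dropped from 0.456 to 0.196 without BXD12/TyJ and BXD31/TyJ. Bmpr2 tracked the ligand Bmp6, with r = 0.470 and rho = 0.444 over all strains (adjusted permutation p = 2.4e-04 and 3.6e-04). Here r was 0.491 without BXD28/TyJ and PL/J. Within families it was 0.549 in BXD, 0.496 in AXB/BXA and 0.349 in other inbred strains, and it passed only in BXD (adjusted permutation p = 0.00288, 0.382 and 0.266). No other member passed with Bmp6. In a family of 45 further relations, chosen after seeing the data, Bmpr2 also followed the sum of sinusoidal endothelial markers (r = 0.432, adjusted permutation p = 4.5e-04) and the share of CPM from genes with transcripts of at least 8000 bases (r = 0.325, adjusted 0.0117). Bmpr2 is itself among those genes, with a longest transcript of 12899 bases. In AXB/BXA r with that share was 0.728. The part of the endothelial sum and of that share in the Bmpr2 relations was not tested. In the same family Hfe followed the macrophage sum (r = 0.306, adjusted permutation p = 0.0135), and Tfr2 ran against the stellate cell sum by r (-0.274, adjusted 0.0346) and not by rho (-0.258, adjusted 0.0528). Tmprss6 ran against the sinusoidal endothelial sum by rho (-0.312, adjusted permutation p = 0.009) and not by r (-0.234, adjusted 0.0801).

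**Figure D4:**
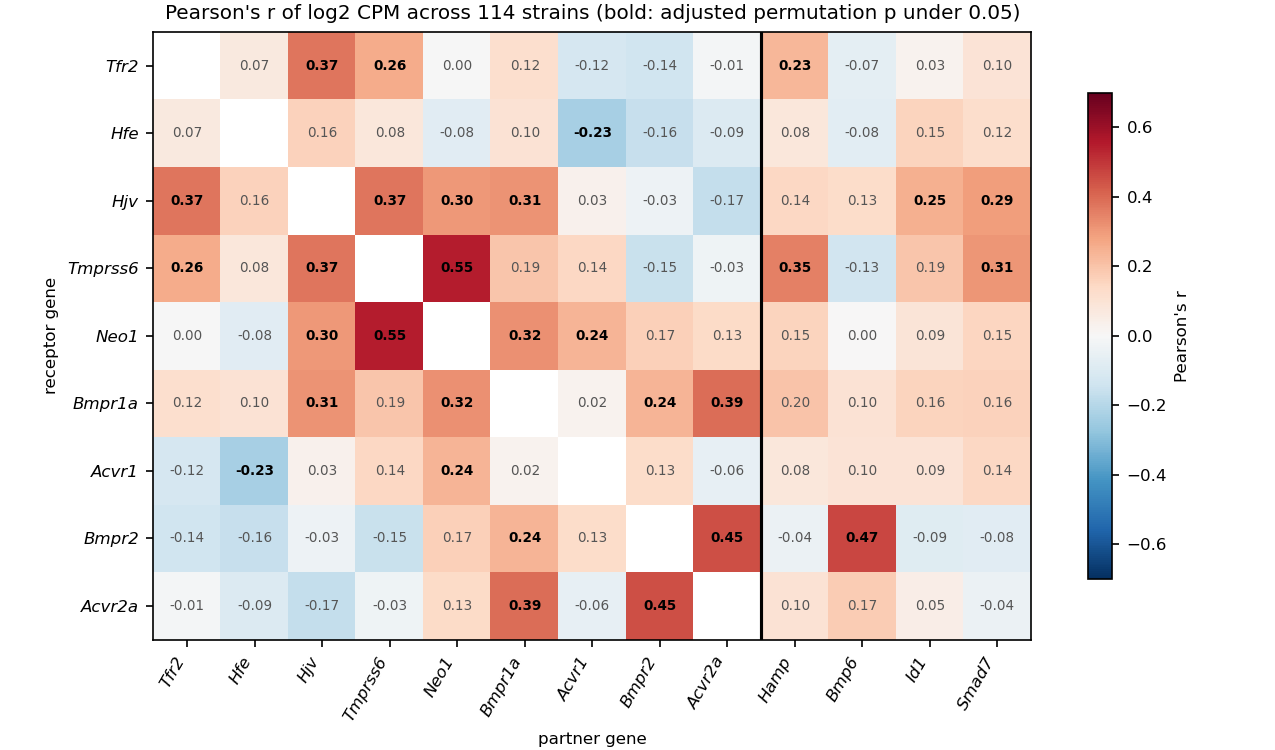
Pearson's r of log2 CPM over 114 strains between each receptor gene (rows) and the other receptors, Hamp, Bmp6, Id1 and Smad7 (columns, the last 4 right of the line), with colour for r and bold where the adjusted permutation p was under 0.05. Tmprss6 with Neo1 (0.548) and Bmpr2 with Bmp6 (0.470) are the strongest cells.

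The genes most like each member across the 114 strains, among 12905 genes averaging 1 CPM or more, are given as a description without a test. Tmprss6 had the closest company, with r = 0.859 for Serpinf1, 0.847 for Proc and 0.838 for Afm, all encoding proteins secreted by the liver. NZB/BlNJ, BXH2/TyJ and BTBR T<+> tf/J, the lowest strains for Tmprss6, belong to neither BXD nor AXB/BXA. Within BXD r was 0.796, 0.669 and 0.691, and within AXB/BXA 0.503, 0.590 and 0.626. In the other inbred strains it was 0.921, 0.901 and 0.911. By rho over all strains these genes ranked 7, 6 and 44 with Tmprss6. Tfr2 was most like Vtn (0.690), Itih4 (0.684) and Cfb (0.658), again secreted liver proteins. Hjv was most like Tmie (0.695), Hdac5 (0.680) and Qprt (0.640), of which Tmie had 0.316 and Qprt 0.405 within BXD, and Qprt 0.272 within AXB/BXA. Genes like Neo1 included Car3 (0.688) and Cat (0.677). Bmpr2 was most like Taok1 (0.732), Qk (0.719) and Usp9x (0.672), and Acvr2a like Pkn2 (0.677), Ddx3x (0.618) and Cdc73 (0.615). Bmpr1a was most like Arel1 (0.606), Wrnip1 (0.555) and Cpeb4 (0.553). Acvr1 had the loosest company, with Ampd2 (0.447), Rnf43 (0.421) and Hltf (0.412).

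For Hfe the most similar genes were its neighbours. Aoah (r = 0.594), the histone gene Hist1h1c (0.511) and Ggps1 (0.432) all lie on chromosome 13, at 2.67, 0.028 and 9.64 Mb from Hfe. Genes within 10 Mb of Hfe make up 0.581% of those compared. Within families Aoah kept r = 0.605 in BXD, 0.671 in AXB/BXA and 0.498 in other inbred strains, and Hist1h1c kept 0.524, 0.706 and 0.478. Ggps1 had 0.457, 0.593 and 0.164. None of the genes named for the other 8 members lay on the member's own chromosome. Hist1h1c belongs to a family of near-identical histone genes, so its counts are uncertain.

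**Figure D5:**
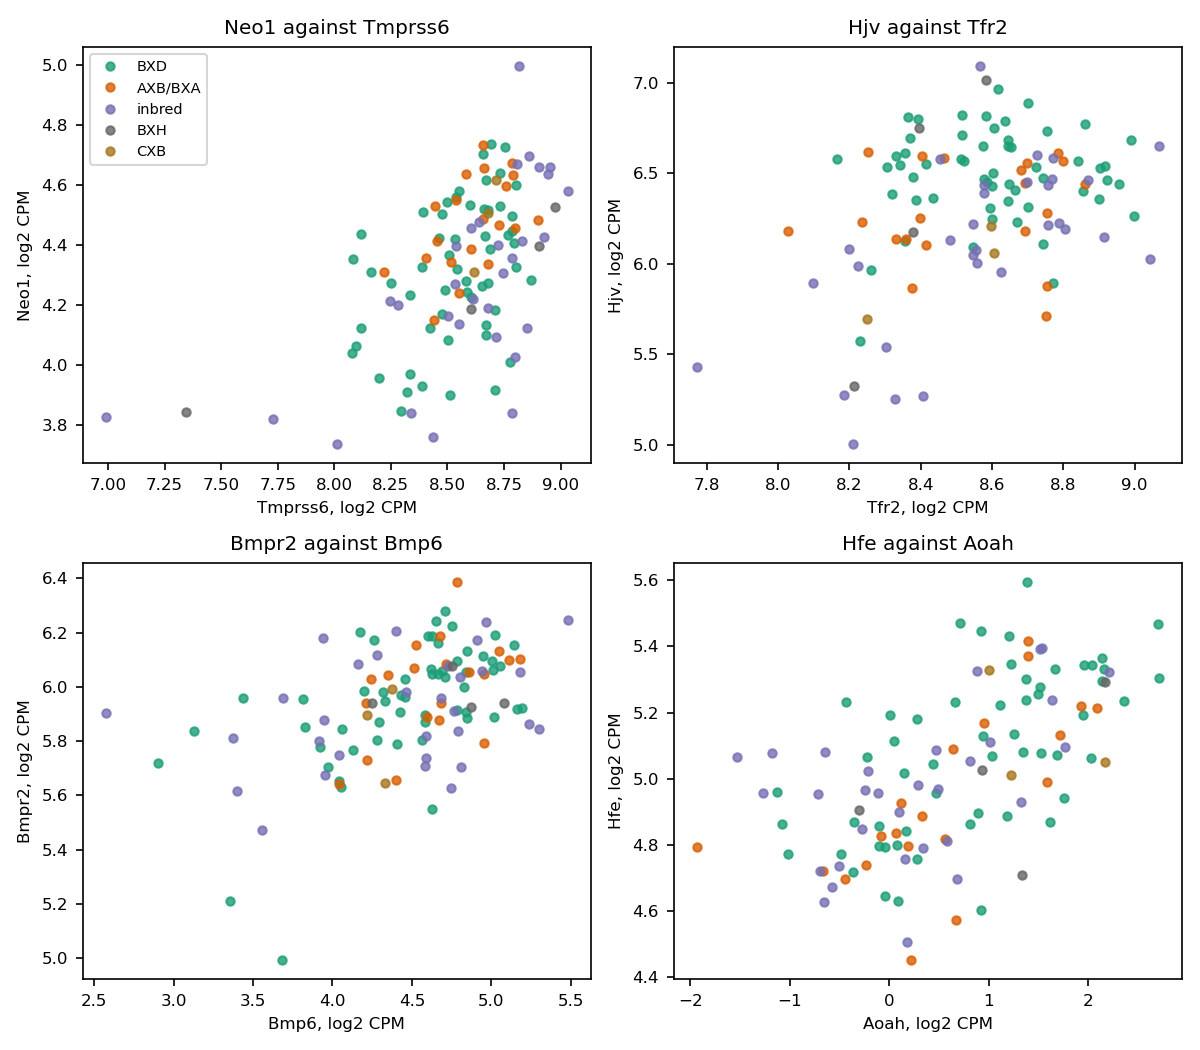
Log2 CPM of 4 pairs of genes, 1 point per strain coloured by family: Neo1 against Tmprss6 (r = 0.548), Hjv against Tfr2 (0.373), Bmpr2 against Bmp6 (0.470) and Hfe against Aoah (0.594). The strains NZB/BlNJ and BXH2/TyJ lie far to the left for Tmprss6.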

How the data were processed

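Liver mRNA was sequenced in 130 libraries. The authors deposited expected counts per gene, with no normalization as judged from the values, and TPM for the same genes and mice. Kallisto 0.46 and the build mm10 are named in the submitters' processing notes. The labels name a stranded mRNA kit and total RNA with RINe over 8, and give no batch. Symbols came from GENCODE M21 on GRCm38 (34924 of 35274 and 35691 of 35711 identifiers matched).

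Expected counts were rounded and tested with edgeR 4.0.16 (quasi-likelihood test, TMM factors, filterByExpr) in R 4.3.3, with Benjamini-Hochberg adjustment over all genes. Values are per mouse or mean ± SD, and changes are log2 ± SE. The 5 diets were fitted together. The strain families BXD, AXB/BXA and other inbred were fitted with the strain as replicate and the 2 mice of 129X1/SvJ summed, and averaged for correlations. Each diet library is labelled as a separate mouse. Log2 CPM used a prior count of 2. Correlations had 100000 permutations, and family differences 10000. Python 3.11.15, numpy 2.4.6, scipy 1.17.1 and pandas 2.3.3 were used. Scripts were tested on simulated data.

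The alternatives tried were DESeq2 1.42.0, limma 3.58.1 on log2(TPM + 1) and log2(TPM + 0.1), RLE factors, a strict filter (10 counts or more in each library) or none, the compared groups alone, each mouse left out, Spearman's rho, centring within families and a prior count of 0.5. Leaving out BXD65 and the relations with marker sums were chosen after seeing the data. The members and gene lists were chosen with earlier results of these data known. The text names the 9 members throughout, pathway genes called for 2% iron against 50 ppm (up to 6 per list), and for each member the 3 genes of highest r. Some genes that this rule names are not reported here. Strains were picked for naming by their values.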

Additional observations from a re-analysis of the deposited data

Results flagged for a closer look

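Among the 4 BXH strains, Bmpr2 measured 67.3 CPM in BXH10/TyJ, and 60.6, 61.2 and 61.3 CPM in the other strains. The gap of the highest strain to its neighbour was 0.898 of the whole range, above Dixon's critical value for 4 samples. Such a gap arises by chance in about 1 of 20 groups, and 9 genes were looked at in this group. The value lies inside the range of the panel, 31.6 to 83.5 CPM.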

How the results depend on the processing

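The count of called members was 0 in place of 1 for 2% iron against 50 ppm with no filter, with limma on either TPM scale and with the compared groups alone, and 0 in place of 1 for 2% iron against chow with limma on either TPM scale. With limma on either TPM scale it was 1 in place of 3 for cellulose against 50 ppm and 1 in place of 2 over both 2% diets. DESeq2 called 1 in place of 0 for 2% iron against 500 ppm, and the 2 compared families alone gave 1 in place of 0 for BXD against AXB/BXA. Leaving out a mouse in turn gave 0 to 1 for 2% iron against 50 ppm, against 500 ppm and against chow, 1 to 3 for cellulose against 50 ppm and 2 to 3 over both 2% diets. Of 72 relations, 18 passed by r, 9 by Spearman's rho, 45 on log2(TPM + 1) and 14 without BXD65. The r of Hfe and Acvr1 was 0.237 on log2(TPM + 1). Of 114 alternative values for called members, 86 kept the call, 28 lost it and 0 turned direction. The causes were not tested. No paired analysis was possible because the labels give no replicate numbers. With 3 mice per diet and 1 mouse per strain, small changes in Acvr1, at 9.79 to 16.7 CPM in the diet mice, are the least resolved.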
